A study of Mus musculus with 12 samples.

Results

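The 10 genes described here encode the NF-κB subunits and the proteins that restrain or modulate them. They are the subunits Rela, Rel, Relb, Nfkb1 and Nfkb2, the IκB family members Nfkbia, Nfkbie, Nfkbiz and Bcl3, and Tnfaip3, a ubiquitin-editing enzyme that acts upstream of the complex. They were taken by symbol from the 25124 genes listed in each of 2 expression tables, and all 10 were present in both. The tables hold FPKM (fragments per kilobase of transcript, scaled to mapped tags) of bulk retina from wild-type C57BL/6J mice, as 12 libraries in 6 groups of 2 biological replicates. In the single-elevation experiment, 1 eye of 3-month-old (3mo) or 18-month-old (18mo) mice was brought to an intraocular pressure (IOP) of 30 mmHg for 1 h, the other eye was left untreated as the contralateral control, and retinas were collected at day 2. The groups are named 3mo control and 3mo IOP, and 18mo control and 18mo IOP. In the repeated experiment, mice that were 3 months old at the first elevation received 4 unilateral elevations of the same pressure and duration at fortnightly intervals, and the treated (4xIOP) and contralateral (4xIOP control) retinas were collected 2 days after the last. Each control eye belonged to an animal whose other eye had been treated, so no group comes from untreated animals.

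NF-κB is a dimer of Rel-homology proteins that is kept in the cytoplasm by IκB proteins until a receptor such as that for TNF or interleukin-1 signals to the IκB kinase complex. RelA, c-Rel and the product of Nfkb1 carry the fast, canonical arm, whereas RelB and the product of Nfkb2 carry the slower, non-canonical arm. The genes of Nfkb2, Relb, Nfkbia, Nfkbie, Nfkbiz, Bcl3 and Tnfaip3 are themselves textbook targets of the pathway, so that the inhibitors are remade after each activation. In the retina the pathway is known for its activity in Müller glia, microglia and vessels during injury and inflammation.

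Libraries held 39766257 to 59455200 mapped tags, of which 44.2 to 71.5% lay in exons. The summed FPKM of 10 rod markers was at least 5856 in all 12 libraries. Of the 4 single-elevation libraries at 3 months, 3 stood apart in transcript length. Median FPKM of genes under 1000 bases was 1.36 and 3.55 times that of genes of at least 4000 bases in 3mo control and 3.07 and 2.48 times in 3mo IOP, against 0.909 to 1.41 in the other 8 libraries. The summed FPKM of 10 retinal ganglion cell markers was 363 to 701 in 3mo control and 38.8 to 90.6 in 18mo control. That of 10 endothelial markers was 16.4 to 18.3 and 84.6 to 91.4, and all 10 of these genes were called higher. Retinal pigment epithelium markers summed to 290.0 to 371 and 122 to 171, and 8 of 9 tested were called lower. In bulk retina, fewer cells of a type and less RNA per cell cannot be told apart, and every comparison below is subject to this.

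The windows of 250 bases before the annotated starts are shown because the members are background targets of NF-κB, and the windows differ in whether they hold a κB motif. Sequences are from RefSeq (GRCm38.p6, the mm10 build), which gave 10 windows for 7 members. Nfkb1, Relb and Nfkbiz had no entry. Each is printed from 5′ to 3′ on the strand of the gene, with matches to the κB consensus of 10 letters on either strand in capitals. They cover chr19:46304487-46304736 (plus strand) for Nfkb2, chr12:55492648-55492897 (minus) for Nfkbia, chr7:19822756-19823005 (minus) for Bcl3, and chr10:19015411-19015660 and chr10:19011964-19012213 (both minus) for the upstream start of Tnfaip3 and for the start of the transcript that was counted.
Nfkb2, first start: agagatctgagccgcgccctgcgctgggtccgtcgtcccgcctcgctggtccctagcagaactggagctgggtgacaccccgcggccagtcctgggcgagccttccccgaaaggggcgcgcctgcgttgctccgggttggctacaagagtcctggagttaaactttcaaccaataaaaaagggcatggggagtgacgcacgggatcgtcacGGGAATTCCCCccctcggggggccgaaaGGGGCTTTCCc
Nfkbia: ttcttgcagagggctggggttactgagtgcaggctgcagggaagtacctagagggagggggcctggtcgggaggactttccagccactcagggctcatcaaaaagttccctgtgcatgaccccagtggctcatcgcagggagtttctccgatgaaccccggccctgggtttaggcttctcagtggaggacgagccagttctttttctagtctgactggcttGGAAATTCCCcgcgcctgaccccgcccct
Bcl3: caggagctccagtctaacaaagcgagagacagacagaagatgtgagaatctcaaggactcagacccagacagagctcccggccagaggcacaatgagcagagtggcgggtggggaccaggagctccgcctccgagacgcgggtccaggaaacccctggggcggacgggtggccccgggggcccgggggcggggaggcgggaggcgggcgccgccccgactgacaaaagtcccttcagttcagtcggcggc
Tnfaip3, upstream start: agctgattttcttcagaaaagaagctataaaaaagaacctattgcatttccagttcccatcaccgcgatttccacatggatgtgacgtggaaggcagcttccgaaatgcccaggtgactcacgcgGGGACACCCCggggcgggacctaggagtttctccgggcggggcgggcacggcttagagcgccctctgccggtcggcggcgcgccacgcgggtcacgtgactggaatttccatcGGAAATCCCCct
Tnfaip3, counted start: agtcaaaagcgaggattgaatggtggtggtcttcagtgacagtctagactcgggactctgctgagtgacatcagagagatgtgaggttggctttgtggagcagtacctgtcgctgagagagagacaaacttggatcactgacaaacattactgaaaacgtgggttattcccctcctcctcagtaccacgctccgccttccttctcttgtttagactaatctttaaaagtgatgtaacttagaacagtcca

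Before its first start, Nfkb2 carried 4 matches in 2 places, 39 and 11 bases from the start. Nfkbia carried 1 match 29 bases before its start. Bcl3 carried none, nor did the window of the counted Tnfaip3 transcript, while the window of the upstream Tnfaip3 start carried 3 matches in 2 places, 125 and 12 bases away. In the windows not printed, Nfkb2 had 1 match before each of its other starts, Rel had 3 overlapping matches in 1 place, Nfkbie had 1, and Rela had none. Of the 7 members with a sequence, 5 held a match in any window (71.4%) and 4 held one before the counted transcript (57.1%), against 8.23% of all 27025 genes in any window. A match is a description of the letters and not evidence of binding.

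**Figure D1:**
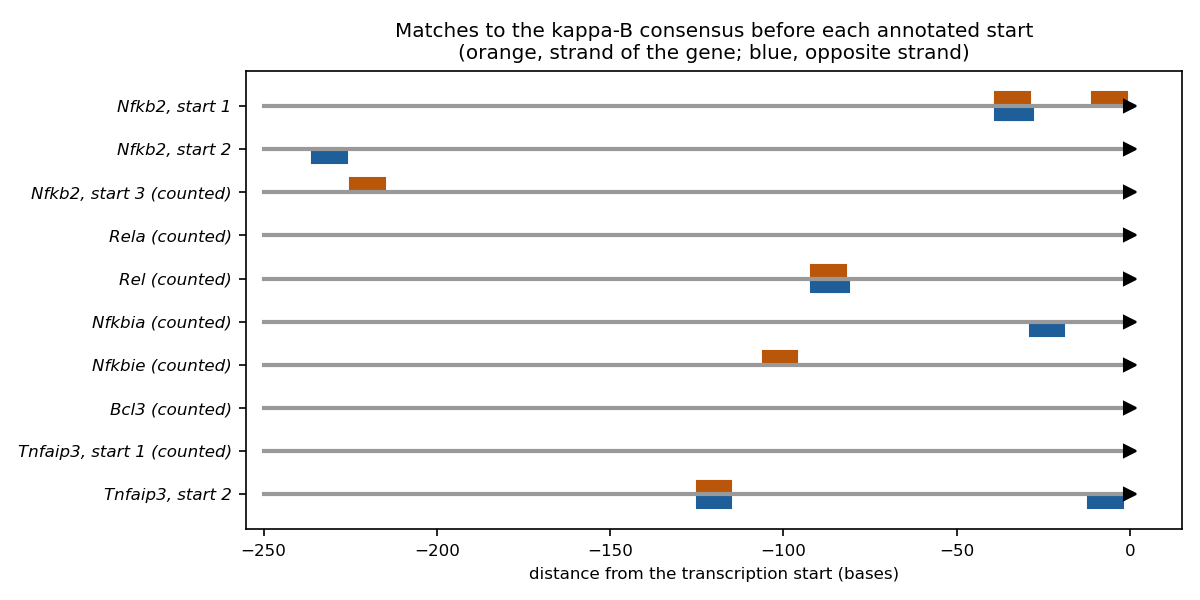
Position of κB consensus matches in the 250 bases before each annotated start of the 7 members with a promoter sequence. The x axis is the distance from the start in bases, boxes above the line are matches on the strand of the gene and boxes below it on the opposite strand. Rela, Bcl3 and the counted start of Tnfaip3 have no box.

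Levels, compared per kilobase as FPKM, spanned more than 100-fold among the members in every control group. In 3mo control, Tnfaip3 was highest at 57.2 and 41.9 FPKM, followed by Nfkbia (7.86 and 10.2), Rela (3.65 and 2.54), Nfkbiz (2.53 and 2.42) and Nfkb1 (2.05 and 1.53), each apart from the next. Nfkbie and Rel overlapped near 0.5 FPKM, and Nfkb2, Bcl3 and Relb were lowest, at means of 0.211, 0.143 and 0.133 FPKM, with Bcl3 overlapping each of the other two. The same pair, Tnfaip3 and Nfkbia, led in 18mo control and in 4xIOP control, and Bcl3 was the lowest in both, at 0.338 and 0.679 FPKM and at 0.083 and 0.052 FPKM. Nfkbia and Tnfaip3 overlapped in 18mo IOP and in 4xIOP but stayed apart in 3mo IOP. Bcl3, at the bottom in controls, overlapped Rela in 3mo IOP, 18mo IOP and 4xIOP.

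**Figure D2:**
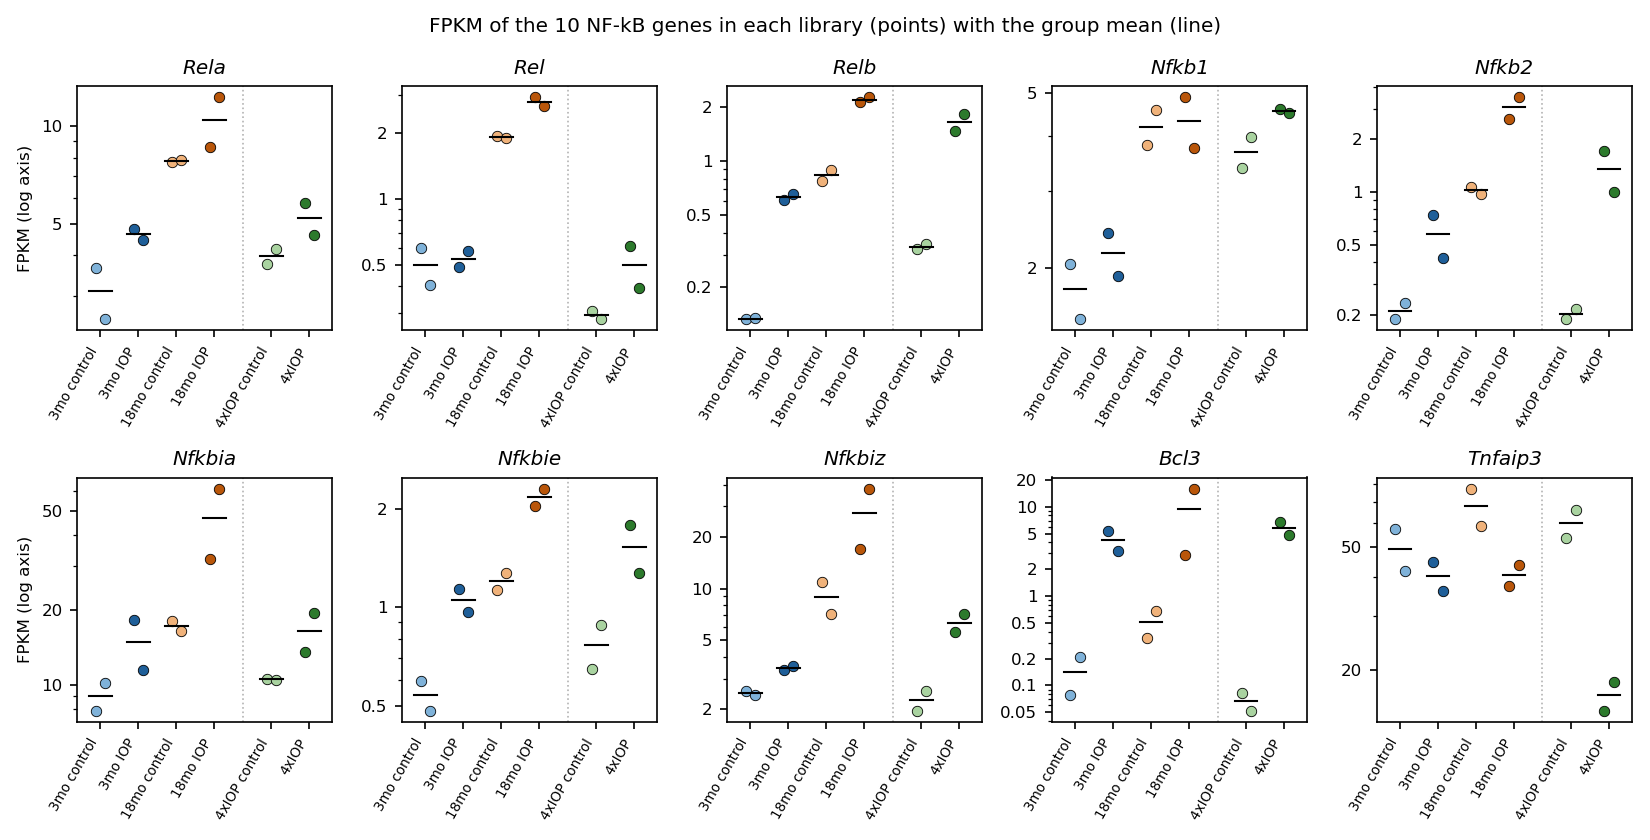
FPKM of each of the 10 genes in the 12 libraries (log y axis, a separate scale for each gene). Points are libraries, lines are means of 2 libraries, and the dotted line separates the single-elevation table from the repeated-elevation table. Bcl3 is the gene with the widest gap between control and pressure, and the level of Tnfaip3 is lower in 4xIOP than in any other group.

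With age alone, 6 of the 10 genes were higher: Rela, Rel, Relb, Nfkb1, Nfkb2 and Nfkbiz rose between 3mo control and 18mo control, and none fell. A gene was called when limma's adjusted p across all genes was at most 0.05 and the log2 fold change of FPKM + 0.5 was at least 1 in size. In the same comparison 11.6% of the 13731 genes tested were called higher and 11.6% lower. For all 10 members both 18mo control libraries were above both 3mo control libraries, which held for 45.7% of all genes. The median log2 fold change was 1.06 over the members and 0.16 over all genes. With the trends on transcript length and GC content removed from the values, 3 members were called (Rel, Nfkbia and Nfkbiz), and Nfkb1, Nfkb2, Rela and Relb lay between 0.36 and 0.52. Without the second 18mo control library, 2 members were called, Rel and Nfkbiz. Without the first, Nfkb2 (1.05, adjusted p = 0.0627) and Nfkbiz (1.36, adjusted p = 0.0618) were not called, and without the second 3mo control library Nfkb1 (0.87) was not. With a pseudocount of 1, and likewise with the length trend alone removed, Nfkb1, Nfkb2, Relb and Rel lay under 1, and with quantile normalization Nfkb1, Nfkb2 and Relb did. Scaling by the median of ratios left 5 members called and moved the share of higher genes among all calls from 50.1% to 35.0%. Between treated eyes of the 2 ages, 6 members were also called higher (Rela, Rel, Relb, Nfkb2, Nfkbia and Nfkbiz) and none lower, against 10.2% of genes called higher and 11.6% lower. There, all 10 endothelial and 7 of 10 Müller glia markers were called higher. All 10 ganglion cell and 8 of 9 pigment epithelium markers tested were called lower. The part of these marker changes in the member calls was not tested. The call for Rela was lost with median-of-ratios size factors (0.98), with quantile normalization (0.93), with the transcript length trend removed (0.94) and with length and GC content trends removed (0.55). Rela was also not called without either 3mo IOP library (1.12, adjusted p = 0.0635, and 1.03, adjusted p = 0.0685) or without the second 18mo IOP library (0.83, adjusted p = 0.0518). Nfkbia was not called without the second 3mo IOP library (1.26, adjusted p = 0.0727), and Relb was not called with a pseudocount of 1 (0.97) or with length and GC content trends removed (0.81). A fit that leaves out a library has 1 library in that arm, which is assumed to vary like the other groups.

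After a single elevation, no member was called at 3 months or at 18 months by limma, in a fit that did not pair eyes, with adjustment over all genes. The same test called 0.568% of genes higher at 3 months and 0.117% at 18 months, and 0.00728% lower at each age. At an unadjusted p under 0.05, 5 members passed at 3 months and 7 at 18 months, against 8.51% and 9.45% of all genes. Both pressure libraries were above both controls for 7 members at 3 months (28.6% of all genes) and for 8 at 18 months (36.5%), and Tnfaip3 was below its controls at 18 months (9.89% of all genes). After 4 elevations, 5 of the 9 members tested were called: Bcl3, Relb, Nfkb2 and Nfkbiz rose and Tnfaip3 fell. There, 5.45% of the 13718 genes tested were called higher and 0.693% lower. Genes called higher made up 88.7% of those calls, against 77.9% after quantile normalisation and 78.6% with the length and GC trends removed. Both 4xIOP libraries were above both controls for 8 of the 9 (27.7% of all genes) and below them for Tnfaip3 (12.7%). Rel had a mean under 0.5 FPKM in that table and was not tested. Bcl3, Nfkb2 and Relb averaged 0.0675, 0.202 and 0.335 FPKM in 4xIOP control and passed this filter only through 4xIOP. The count of 5 of 9 therefore depends in part on the filter. Without a filter on low values, 4 members were called higher and 1 lower.

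**Figure D3:**
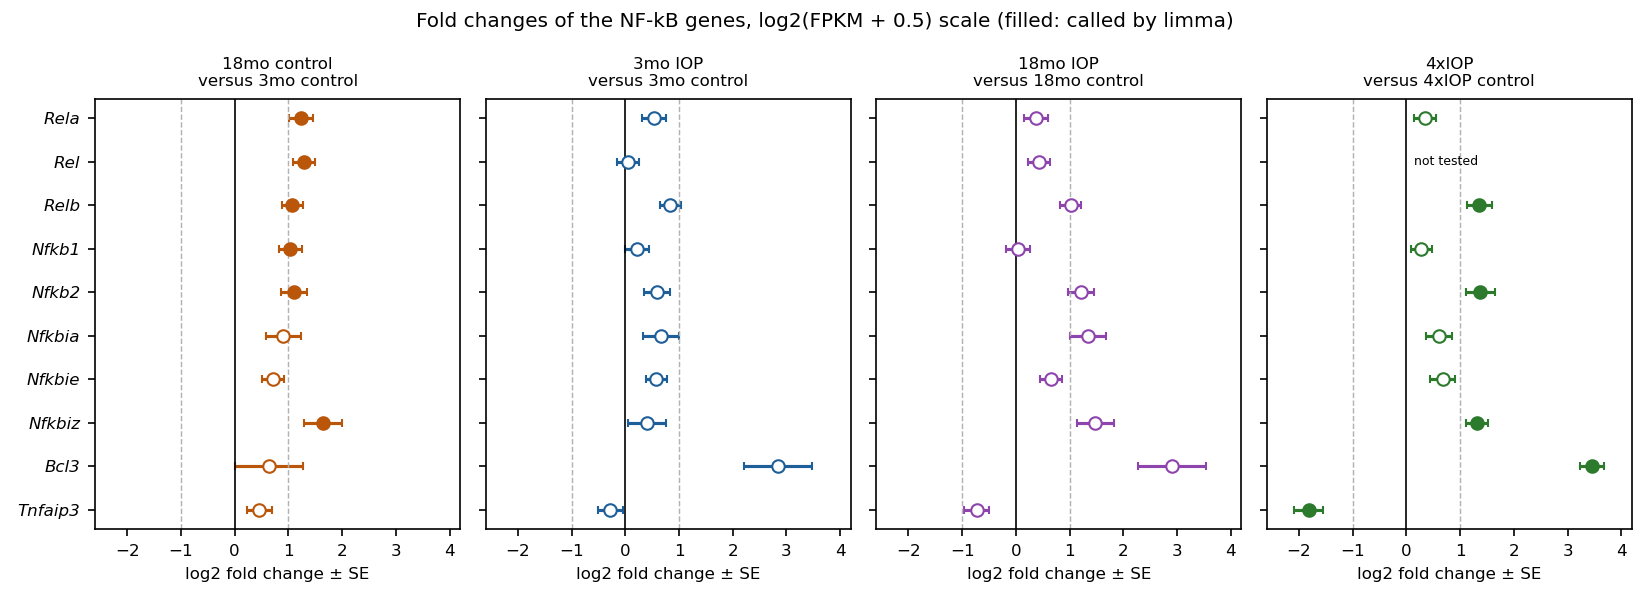
Log2 fold change (x axis, FPKM + 0.5 scale) of each gene in 4 comparisons, with bars of 1 SE. Filled points were called by limma. Bcl3 lies at 2.85, 2.90 and 3.45 after pressure, and Tnfaip3 lies at -1.82 after 4 elevations.

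Of the canonical subunits, Rela (chr19:5637541-5648134, plus strand), which carries the main transactivation domain, measured 3.65 and 2.54 FPKM in 3mo control and 7.79 and 7.88 in 18mo control. The older libraries were both higher, and the log2 fold change was 1.23 (SE 0.22, limma adjusted p = 0.00704). Rel (chr11:23736850-23770969, minus), the c-Rel subunit best known from lymphocytes and myeloid cells, measured 0.595 and 0.405 FPKM in 3mo control and 1.95 and 1.90 in 18mo control, a rise of 1.28 (SE 0.20, adjusted p = 0.00564). Nfkb1 (chr3:135584655-135691547, minus), whose product pairs with RelA in the classical dimer, measured 2.05 and 1.53 FPKM against 3.80 and 4.58, a rise of 1.04 (SE 0.22, adjusted p = 0.00963). By the ratio of mean FPKM the rises were 2.53-fold for Rela, 3.85-fold for Rel and 2.34-fold for Nfkb1. With length and GC content trends removed, Rela lay at 0.52 and Nfkb1 at 0.45 on the log2 scale and neither was called, while Rel still was. In the same libraries the microglial marker sum was 33.8 to 50.6 FPKM at 3 months and 99 to 110.9 at 18 months, and the Müller glia sum was 760 to 973 and 1703 to 1984. The endothelial sum was 16.4 to 18.3 and 84.6 to 91.4. The part of these marker changes in the result was not tested.

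No pressure difference of the canonical subunits was called. Rela measured 4.82 and 4.47 FPKM in 3mo IOP and 8.64 and 12.3 in 18mo IOP, in each case above its controls without passing the test (log2 fold changes 0.53 and 0.38). Rel measured 0.487 and 0.580 in 3mo IOP, within its controls, and 2.93 and 2.65 in 18mo IOP, above them (0.05 and 0.44). Nfkb1 overlapped its controls at both ages, at 2.41 and 1.92 FPKM and at 4.891 and 3.754. After 4 elevations Nfkb1 measured 4.60 and 4.51 FPKM against 3.37 and 3.97 in control (0.28, SE 0.19, adjusted p = 0.645). Rela measured 5.78 and 4.62 against 3.76 and 4.18 (0.34, SE 0.20, adjusted p = 0.519). Both lay above their controls by less than the test could call.

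Both genes of the non-canonical arm rose after 4 elevations. Relb (chr7:19606223-19629438, minus), which partners the processed product of Nfkb2, measured 0.323 and 0.347 FPKM in control and 1.48 and 1.82 in 4xIOP. Its group mean was 4.93 times higher, and the log2 fold change was 1.36 (SE 0.24, adjusted p = 0.0021). Nfkb2 (chr19:46305930-46312090, plus) measured 0.188 and 0.216 FPKM in control and 1.72 and 1.00 in 4xIOP, a mean 6.73 times higher and a log2 fold change of 1.38 (SE 0.27, adjusted p = 0.00495). Psd overlaps an exon of Nfkb2 on the other strand, and reads were counted by strand. The ratios of means are larger than the fitted changes because 0.5 was added to values that were below it in control. With a pseudocount of 1, Nfkb2 lay at 0.96 and Relb at 0.99 and neither was called. Nfkb2 was also not called with the libraries scaled by the median of ratios (1.32, adjusted p = 0.0529) or with quantile normalization (0.97, adjusted p = 0.0985).

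Over the single-elevation groups both genes lay in steps. Relb measured 0.132 and 0.134 FPKM in 3mo control and 0.608 and 0.660 after pressure at that age, and 0.774 and 0.891 in 18mo control and 2.13 and 2.27 after pressure. Nfkb2 measured 0.188 and 0.234, then 0.737 and 0.423, then 1.08 and 0.971, and then 2.61 and 3.49 in the same order. No library of a group overlapped the group before it, so that retinas of young treated eyes stood below those of old untreated eyes. That step lies between libraries with short-to-long transcript ratios of 3.07 and 2.48 in 3mo IOP and 0.937 and 0.909 in 18mo control. With age in control eyes Relb rose by 1.07 (SE 0.20, adjusted p = 0.00739) and Nfkb2 by 1.10 (SE 0.24, adjusted p = 0.0103). With pressure the values were 0.84 and 0.59 at 3 months (adjusted p = 0.157 and 0.524) and 1.02 and 1.21 at 18 months (adjusted p = 0.115 for both). Rela and Nfkbiz showed the same order without overlap, making 4 of the 10 members against 4.95% of all genes tested, a pattern chosen after the values were seen. With length and GC content trends removed, the age difference in control eyes was 0.44 for Relb (limma adjusted p = 0.133) and 0.36 for Nfkb2 (adjusted p = 0.32). Neither was then called, and the order of the groups was not examined with these trends removed.

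The share of Relb and Nfkb2 in the summed FPKM of the 5 subunits was 4.84 to 7.60% in 3mo control, 13.5 to 14.9% in 3mo IOP, 11.48 to 12.02% in 18mo control and 22.4 to 23.5% in 18mo IOP. It was 6.26 to 6.43% in 4xIOP control and 22.5 to 22.9% in 4xIOP. In each experiment the pressure libraries had the higher share, and the young 4xIOP and the 18mo IOP retinas lay within about 1 percentage point of each other, although they come from tables normalised apart. The levels themselves were not alike: summed Relb and Nfkb2 in 18mo IOP exceeded that in 4xIOP.

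Among the cytoplasmic inhibitors, Nfkbia (chr12:55489409-55492647, minus), which encodes IκBα, the inhibitor degraded and resynthesised in each round of activation, measured 7.86 and 10.2 FPKM in 3mo control retinas and 18.2 and 11.5 after pressure. In 18mo control it measured 18.0 and 16.4, and in 18mo IOP 31.996 and 61.357. Groups did not overlap within an age, yet the 2 libraries of 18mo IOP differed by nearly as much as they exceeded the controls. The log2 fold changes were 0.67 at 3 months (SE 0.33, adjusted p = 0.682) and 1.34 at 18 months (SE 0.33, adjusted p = 0.173). Between ages the gene was higher in pressure-treated eyes by 1.58 (adjusted p = 0.0104), a call lost without the second 3mo IOP library (1.26). In control eyes it was higher by 0.90 (adjusted p = 0.0528), which missed both the adjusted p and the fold required for a call. After 4 elevations it measured 13.5 and 19.4 FPKM against 10.60 and 10.451 (0.60, SE 0.24, adjusted p = 0.221).

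Nfkbie (chr17:45555700-45563168, plus, in the single-elevation table), encoding IκBε, was the lower of these inhibitors in every library. It measured 0.595 and 0.483 FPKM in 3mo control and 1.14 and 0.968 after pressure at that age, and 1.13 and 1.28 in 18mo control and 2.04 and 2.31 after pressure. Pressure libraries were above their controls at both ages, by 0.58 (adjusted p = 0.39) and 0.65 (adjusted p = 0.255). The age difference in control eyes, 0.71, passed the adjusted p (0.0225) but not the fold required for a call. In the repeated table, where another transcript of the gene was counted, it measured 0.650 and 0.881 FPKM in control and 1.79 and 1.27 in 4xIOP (0.68, adjusted p = 0.132). The pairs never overlapped, and none of the 3 pressure differences was called.

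The nuclear IκB proteins Nfkbiz and Bcl3 bind homodimers of the smaller subunits on DNA and can activate as well as repress. Nfkbiz (chr16:55811377-55822138, minus, in the single-elevation table), encoding IκBζ, measured 2.53 and 2.42 FPKM in 3mo control and 3.37 and 3.54 after pressure at that age, and 10.8 and 7.13 in 18mo control and 17.0 and 38.0 after pressure. On the log2(FPKM + 0.5) scale it had the largest age difference of the 10 genes, although by the ratio of mean FPKM in control eyes Relb (6.26), Nfkb2 (4.85) and Rel (3.85) exceeded it (3.63). The log2 rise was 1.65 in control eyes (SE 0.35, adjusted p = 0.00981) and 2.72 in pressure-treated eyes (SE 0.35, adjusted p = 0.00316). Without the first 18mo control library the value in control eyes was 1.36 (adjusted p = 0.0618), no longer a call. With pressure it lay at 0.41 (adjusted p = 0.934) at 3 months and at 1.48 (adjusted p = 0.162) at 18 months. In the repeated table, again on another transcript, it rose from 1.95 and 2.54 FPKM to 5.57 and 7.11 (1.31, SE 0.21, adjusted p = 0.00107). Without the second 4xIOP library that value was 1.15 (adjusted p = 0.066), no longer a call.

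Bcl3 (chr7:19808462-19822755, minus), a proto-oncogene product that coactivates through homodimers of the smaller subunits, had the largest fold change of the 10 genes in each of the 3 pressure comparisons. After 4 elevations it measured 6.68 and 4.88 FPKM against 0.083 and 0.052 in control, where the lower library held 4 reads. The mean was 85.6 times higher, and the log2 fold change was 3.45 (SE 0.23, adjusted p = 6.78e-07). Leaving out any 1 of the 4 libraries gave 3.24 to 3.66. The study itself picked Bcl3 as an example locus in its pressure experiments, so its direction here is not independent evidence. The antisense genes Gm16174 and Gm16175 overlap it on the other strand, and reads were counted by strand.

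In the single-elevation table Bcl3 measured 0.079 and 0.207 FPKM in 3mo control retinas and 5.31 and 3.16 in 3mo IOP, a mean 29.6 times higher. In 18mo control it measured 0.338 and 0.679 and in 18mo IOP 2.86 and 16.0, a mean 18.5 times higher. Every pressure library exceeded every control library of its age, but the 18mo IOP pair lay far apart. The log2 fold changes were 2.85 (SE 0.63, adjusted p = 0.127) and 2.90 (SE 0.63, adjusted p = 0.135), both short of a call. Without the lower 18mo IOP library, the first, the 18-month value was 4.05 (adjusted p = 0.00388), and Nfkbia and Nfkbiz were then called too, at 1.81 and 2.05. The lone remaining library of that arm is assumed there to vary like the other groups. Without the second library the value for Bcl3 was 1.76. In the fit of the 3-month groups alone, Bcl3 was called with an adjusted p of 0.015. The difference between ages in the response of Bcl3 was 0.05 (SE 0.90).

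For none of the 10 genes did the response to a single elevation differ between ages by the interaction test, in which limma's adjusted p was 1 for each and 0 genes were called. At an unadjusted p under 0.05, 218 of all genes (1.59%) passed, and no member did. The largest values were those of Nfkbiz (1.07, SE 0.50), Nfkbia (0.68, SE 0.47) and Nfkb2 (0.62, SE 0.34), each toward a greater difference in the older retina. With 2 libraries a group and SEs of 0.28 to 0.90, these intervals are wide, and a difference of this size could not be told from none.

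Tnfaip3 (chr10:19000910-19011963, minus) was the 1 member that fell. Its product removes activating ubiquitin chains from signalling proteins upstream of the IκB kinases and is a classical feedback inhibitor. It measured 53.5 and 66.0 FPKM in 4xIOP control and 14.8 and 18.4 in 4xIOP, a mean 3.6 times lower, and the log2 fold change was -1.82 (SE 0.27, adjusted p = 0.000598). Its value lay at percentile 0.124 of the genes tested. Without the second control library the value was -1.67 (adjusted p = 0.0563), no longer a call. In 18mo IOP it measured 37.5 and 43.9 FPKM against 77.4 and 58.8 (-0.73, SE 0.23, adjusted p = 0.285), and in 3mo IOP 44.8 and 36.2 against 57.2 and 41.9, with overlap (-0.28, adjusted p = 0.931). Its age difference was not called in control eyes (0.46, adjusted p = 0.136) or in treated eyes (0.01).

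Rod markers were compared in the same groups. After 4 elevations 9 of 10 rod markers were below control without overlap, against 12.7% of all genes, with a median log2 fold change of -0.89 against 0.10 over all genes. At 18 months 6 of 10 were, against 9.89% of all genes, with a median of -0.34 against 0.09, and at 3 months 5 of 10 were, against 3.95%, with a median of -0.16 against 0.13. None of them was called lower, a call made for 0.693% of all genes after 4 elevations and 0.00728% at each age. The summed FPKM of the rod markers was 12240 to 12890 in 4xIOP control and 5856 to 8847 in 4xIOP, and 18190 to 20440 in 18mo control against 13820 to 16290 in 18mo IOP. With age the directions were opposite: the rod sum was 24630 to 28050 in 3mo control, above 18mo control, while Tnfaip3 was higher in 18mo control without overlap. The part of this change in the level of Tnfaip3 was not tested. The transcript counted for Tnfaip3 begins at the downstream start, whose window printed above holds no κB match, and reads from the upstream start were not measured apart from it. Over the 4 comparisons of age and pressure, the genes with the fold changes nearest to those of Tnfaip3 were Rabgef1, Reep6 and 2410124H12Rik, with mean absolute differences of 0.10, 0.16 and 0.20 on the log2 scale among 13059 genes. No other member was near it: the closest, Nfkb1, ranked 7431.

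Among the members that rose, Relb lay closest to Bcl6, Mob3c and Pdlim3 (0.04, 0.06 and 0.09), and Nfkb2 to Pdlim3, Relb and Rab20 (0.12, 0.12 and 0.13), so that the non-canonical pair were mutual near neighbours, ranking 2 and 5. Nfkbiz lay closest to Sox9, Egr2 and Tmem252 (0.12, 0.15 and 0.20), and its nearest member was Nfkb2, at rank 6 (0.26). Rel was untested in the repeated experiment and was not compared. Nfkbia lay closest to Hspb1, Palld and Fosl2 (0.09, 0.09 and 0.12). Bcl3 had no close neighbour, its nearest being Bst2, Gfap and A2m at 0.41, 0.43 and 0.49. Rela lay closest to Lrp10, Plxnb2 and Vcl (0.05, 0.06 and 0.07) and Nfkb1 to Znfx1, Plekhh2 and Fam219a (0.02, 0.03 and 0.04). The comparisons share control libraries, so these distances are descriptions.

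Upstream of the subunits, the ligands and receptors were sparse but included large changes. With age, 2 of 5 ligands tested were called higher, against 11.6% of all genes. The larger rise was that of Il1a, the alarmin interleukin-1α, which measured 0.074 and 0.171 FPKM in 3mo control and 7.60 and 5.64 in 18mo control (log2 fold change 3.51, adjusted p = 0.00376). After 4 elevations Il1b, which encodes interleukin-1β, was the 1 ligand called of 2 tested, at 4.72 and 4.17 FPKM against values at or under 3 reads in control. Il1b was tested only through its level in 4xIOP. Among 6 receptors tested, 2 were called higher with age, 1 with pressure at 3 months, 0 at 18 months and 4 after 4 elevations, and none lower. Over all genes the shares called higher were 11.6%, 0.568%, 0.117% and 5.45%. In 3 of these comparisons the receptor with the largest rise was Tnfrsf1a, the main receptor for TNF. It measured 0.966 and 0.938 FPKM in 3mo control and 5.65 and 3.77 after pressure at that age, and 4.59 and 4.29 in 18mo control and 11.1 and 18.0 after pressure. It rose with age (1.77, adjusted p = 0.00535), with pressure at 3 months (1.82, adjusted p = 0.0325) and after 4 elevations (2.59, adjusted p = 2.66e-06). The 3-month call was lost without the first 3mo control library or without the first 3mo IOP library, fits in which 0 genes were called.

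Between receptor and subunit, calls with age were about as frequent as over all genes, of which 11.6% were called higher. Of 9 kinases tested in the single-elevation table, 1 was called with age, Ikbkb, the catalytic IκB kinase β (1.22, adjusted p = 0.00533), and 0 with pressure at either age. After 4 elevations 0 of 10 kinases were called, with a median log2 fold change of 0.07 against 0.10 over all genes. In old treated against young treated eyes 2 of 9 kinases were called higher, against 10.2% of all genes: Map3k14, the kinase that starts the non-canonical arm (1.11, adjusted p = 0.00851), and Ikbkb (1.05, adjusted p = 0.00678). In that comparison 1 of 13 adaptors and ubiquitin ligases, 1 of 6 receptors and 3 of 5 ligands were called higher. Of 9 other negative regulators, 3 were called higher and 1 lower, against 11.6% of all genes called lower. Of 13 adaptors and ubiquitin ligases tested, 2 were called with age, led by Rnf31, the catalytic part of the linear ubiquitin ligase (1.47, adjusted p = 0.00518), 0 with pressure at either age, and 2 after 4 elevations. Birc3, a ubiquitin ligase recruited to TNF receptors, led these at 1.31 (adjusted p = 0.0135). It averaged 0.095 FPKM in 4xIOP control and was tested only through its level in 4xIOP. The shares of all genes called higher with pressure were 0.568% at 3 months, 0.117% at 18 months and 5.45% after 4 elevations. The remaining IκB-like genes Nfkbib, Nfkbid and Nfkbil1 were not called in any comparison.

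Among 9 other negative regulators tested with age, 3 were called higher and 1 lower, and with pressure 1 was called higher at 3 months, 0 at 18 months and 1 of 8 after 4 elevations. The shares of all genes called higher in these comparisons were 11.6%, 0.568%, 0.117% and 5.45%, and 11.6% were called lower with age. Socs3, a feedback inhibitor of cytokine receptors, was the top gene of its list in each of 4 comparisons: it measured 0.956 and 0.801 FPKM in 3mo control and 7.77 and 6.09 after pressure at that age, and 20.6 and 9.33 in 18mo control and 30.501 and 47.107 after pressure, and 0.351 and 0.313 against 16.2 and 13.2 in the repeated table. It was called with age (3.39), with pressure at 3 months (2.42) and after 4 elevations (4.19, adjusted p = 6.69e-08), and its 3-month call was lost without either first library of those groups. Commd1, which promotes the breakdown of RelA, fell by 1.60 with age on the log2 scale (adjusted p = 0.00856), from 118 and 246 FPKM to 55.4 and 56.3. Its counted transcript is under 1000 bases, and the library with 246 FPKM is the one with the highest ratio of short to long transcripts.

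The list of target genes was the longest. Of 26 tested in the single-elevation table, 8 were called higher and 1 lower with age, led by Junb, an AP-1 subunit, at 88.3 and 42.2 FPKM against 4.195 and 3.727 (3.79, adjusted p = 0.00276), with Cflar, an inhibitor of caspase activation, the 1 lower (-1.11, adjusted p = 0.0183), against 11.6% of all genes in each direction. With pressure, 2 were called at 3 months, led by the monocyte attractant Ccl2 (3.08, adjusted p = 0.0185), and 1 at 18 months, the complement component C3 (3.72, adjusted p = 0.0443), against 0.568% and 0.117% of all genes. The 3-month calls were lost without the first 3mo control or the first 3mo IOP library. The call for C3 was lost without either 18mo control library, with a pseudocount of 0.1, with median-of-ratios size factors, with a replicate block, in the fit of the 2 groups alone, with voom and with length and GC content trends removed, in each of which 0 genes were called at 18 months. After 4 elevations 15 of 22 tested were called higher and none lower, against 5.45% of all genes called higher, with a list median of 2.04, or 1.91 with the 4 genes at or under 3 reads in control placed at 3 reads. Those 4 genes, Ccl5, Cxcl1, Bcl2a1a and Saa3, passed the filter of 0.5 FPKM only through 4xIOP. The share of the list called therefore depends in part on the filter. The gene with the largest value, the acute-phase protein Saa3, was listed at 0 in both control libraries and measured 126 and 259 FPKM in 4xIOP. In old against young treated eyes 12 of 26 were called higher, against 10.2% of all genes, led by the neutrophil attractant Cxcl2, at 4.87 and 14.6 FPKM against 0.205 and 0.045 (3.86, adjusted p = 0.00302).

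**Figure D4:**
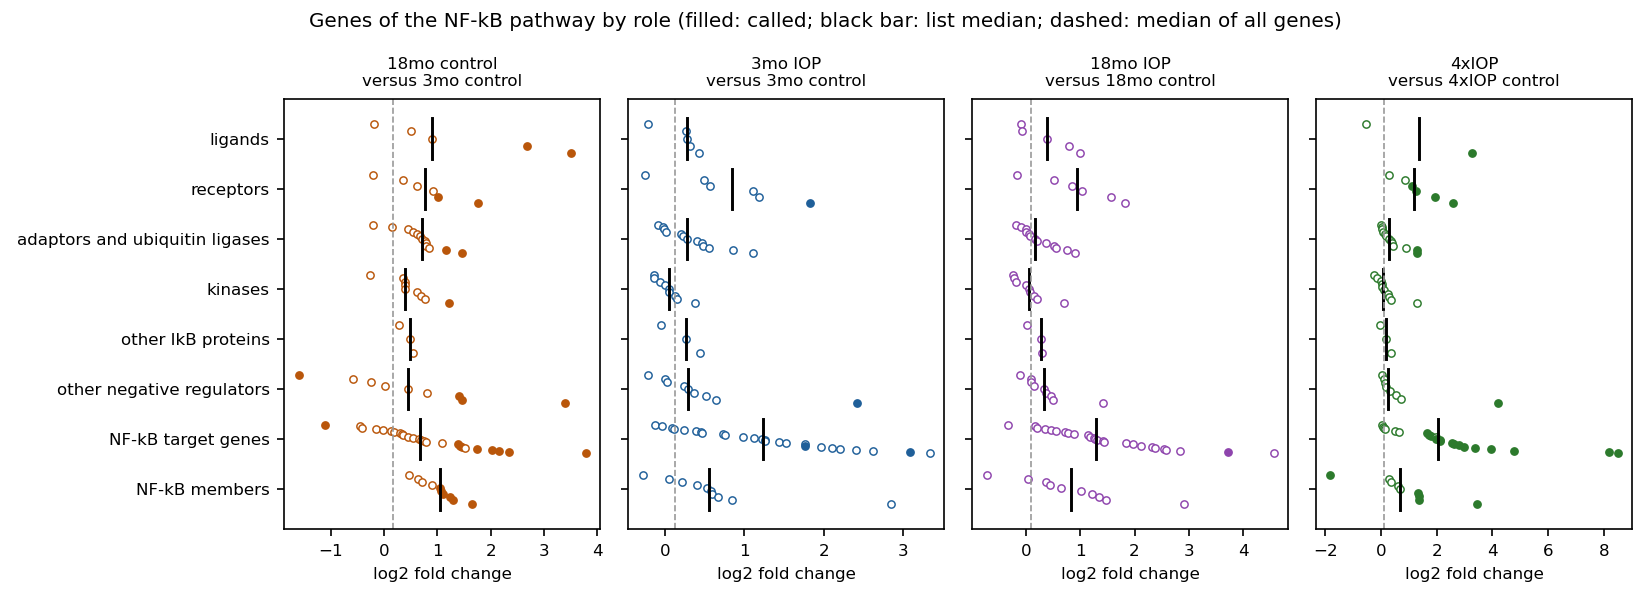
Log2 fold change (x axis, FPKM + 0.5 scale) of pathway genes by role in 4 comparisons. Points are genes, filled where called, black bars are list medians and dashed lines the median of all genes tested. The median of the kinases lies near the dashed line after pressure, and target genes spread to the right. Points of genes at or under 3 reads in control depend on the 0.5 added.

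Markers of other cell types moved with the values after pressure. The summed FPKM of 12 leukocyte markers was 1.26 to 1.74 in control and 168 to 179 in 4xIOP, where all 8 markers tested were called higher and the B cell marker Cd79a was listed at 0 in both libraries. The microglial sum was 16.8 to 17.5 and 133 to 139, with 8 of 9 markers tested called higher. The lens sum was 10.99 to 14.65 and 79.4 to 165, with all 8 tested called higher. The retinal pigment epithelium sum was 123 to 147 and 62.0 to 86.5, with 4 of 5 tested called lower. In 4xIOP control, 11 of 12 leukocyte markers and 7 of 10 lens markers averaged under 0.5 FPKM. Most of those tested thus passed the filter of 0.5 FPKM only through 4xIOP. In 4xIOP, 7 of 10 pigment epithelium markers averaged under 0.5 FPKM. The shares called in these lists therefore depend in part on the filter. In 18mo IOP the leukocyte sum was 53.5 to 54.1 against 7.70 to 13.4, and in 3mo IOP 22.2 to 79.8 against 8.40 to 16.8. The microglial sum was 95.8 to 111.5 in 3mo IOP against 33.8 to 50.6 in its controls, and 132.8 to 287.5 in 18mo IOP against 99.004 to 110.854. The sum over pericyte and smooth muscle markers was 45.2 to 102.5 in 3mo IOP against 10.67 to 11.79, with 2 of 7 tested called higher, and 45.3 to 57.2 in 18mo IOP against 40.1 to 44.1. The Müller glia sum was 980 to 1407 in 3mo IOP against 760 to 973, and 2990 to 3345 in 18mo IOP against 1703 to 1984. The lens sum was 94.2 to 96.0 in 3mo IOP against 47.2 to 71.7, and 84.1 to 184 in 18mo IOP against 39.1 to 47.6. At 3 months 9 of 10 microglial markers were above both controls without overlap (28.6% of all genes), with a median of 0.71. At 18 months 8 of 10 Müller glia markers (median 0.57) and all 6 lens markers tested (median 1.30) were, against 36.5% of all genes. None of the markers of these 3 lists was called at either age, where 0.568% and 0.117% of all genes were called higher. The endothelial sum was 113.9 to 126.9 in 18mo IOP against 84.6 to 91.4, and 72.7 to 78.9 in 4xIOP against 38.4 to 45.0. Blood markers went the other way at 18 months: their sum was 44.3 to 54.2 in 18mo IOP and 166 to 426 in 18mo control, and all 5 tested were lower without overlap (median -2.37), against 9.89% of all genes, with none called. The part of these cell types in the levels of Bcl3, Relb, Nfkb2, Nfkbiz and the target genes was not tested.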

How the data were processed

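RNA from bulk retina was made into poly(A), strand-specific TruSeq libraries by the authors, aligned to mm10 (STAR 2.7.8a in the submitters' processing notes) and counted with HOMER as unique tags in exons of 1 isoform per locus. The deposited unit is FPKM: the authors divided tags by the length of the isoform and by the size of the library, and gave each experiment its own table. The authors' own differential tests were run in DESeq2 on counts. For 91.66% of genes both tables hold the same transcript. Nfkbie and Nfkbiz were counted on different ones.

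FPKM times length and depth came to whole reads within 0.1 for 100% of the values checked, and these reads were used for depth and for the voom alternative. Intervals and limits from reads cover counting error only, and 3 reads were taken as the limit of measurement. Tested genes averaged 0.5 FPKM or more in a table. A gene under 0.5 FPKM in control could pass through the treated group alone, so counts of tested and called genes are not independent. On log2(FPKM + 0.5), limma 3.58.1 (R 4.3.3) was run as lmFit followed by eBayes with trend, checked on simulated data: the 8 single-elevation libraries as 4 groups (4 residual degrees of freedom, prior 4.12), and the 4 libraries of the repeated table alone (2, prior 10.6). Fold changes are on this scale and understate those of low genes. A call needed 0.05 or less after Benjamini-Hochberg adjustment over all genes and a log2 change of 1 or more in either direction. The interaction was called by the adjusted p alone.

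The members, pathway lists and tests were chosen with earlier results of these data known. Named genes were the 10 members, for each pathway list and comparison the called gene with the largest rise and the largest fall, and the 3 genes with the smallest mean absolute difference in 4 log2 fold changes (age in control eyes, pressure at each age, 4 elevations) from each member with a change of at least 1. Cell markers were summed as FPKM over fixed lists. Alternatives covered the pseudocount, the filter, scaling, blocks of replicate number, length and GC trends, voom and each library left out.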

Additional observations from a re-analysis of the deposited data

How the results depend on the processing

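With 2 libraries a group, calls near the threshold were sensitive to settings. Of 1050 alternative values for the members, 958 kept direction and side of the threshold, 39 lost and 18 gained a call, and 35 changed sign, none of them of a value that had been called. For age in control eyes, 6 members called became 2 with a pseudocount of 1 and 3 with a filter at 2 FPKM, quantile normalisation, the length trend removed, or the length and GC trends removed. The 3185 genes called became 6297 by adjusted p alone and 1360 with length and GC trends removed. With 1 library left out, 2 to 6 members and 1176 to 4717 genes were called. For pressure at 3 months, 0 members became 1 with only the 2 groups compared, and 79 genes became 9 without a filter, 10 by median of ratios, 14 by quantiles, 3 by voom and 22 with length and GC trends removed. With 1 library left out, 0 members and 0 to 257 genes were called. For pressure at 18 months, 17 genes became 0 with a pseudocount of 0.1, by median of ratios, by voom, with only the 2 groups compared or with length and GC trends removed, 1 without a filter, 9 at 2 FPKM and 4 by quantiles. With 1 library left out, 0 to 3 members and 0 to 144 genes were called. For age in treated eyes, 6 members became 3 at 2 FPKM, and 3000 genes became 5846 by adjusted p alone and 1477 with length and GC trends removed. With 1 library left out, 4 to 7 members and 722 to 2811 genes were called. For 4 elevations, 5 members became 3 with a pseudocount of 1 or at 2 FPKM, the latter with 475 in place of 843 genes. With 1 library left out, 4 to 5 members and 682 to 798 genes were called. For the interaction, 0 genes became 2 without a filter and 0 to 2 with 1 library left out. A filter at 2 FPKM tests fewer members by construction. The causes of the other shifts were not tested.

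Scaling by the median of ratios moved the median log2 fold change of all genes from 0.16 to 0.0096 with age, 0.14 to -0.04 and 0.089 to -0.017 with pressure at 3 and 18 months, and 0.096 to -0.010 after 4 elevations. Signs changed as follows. Rel with pressure at 3 months was -0.044 by median of ratios, -0.25 by quantiles, -0.094 by voom and -0.085 to 0.19 with 1 library left out. Nfkb1 with pressure at 18 months was -0.070, -0.10 and -0.084 under the same 3 settings, -0.065 without the length trend, -0.081 without length and GC trends and -0.14 to 0.21 with 1 library left out. Tnfaip3 between treated eyes of the 2 ages was -0.084 by median of ratios, -0.085 by voom, -0.32 without the length trend, -0.30 without both and -0.14 to 0.16 with 1 library left out, and Bcl3 was -0.46 to 1.84. In the interaction, Relb was -0.35 with a pseudocount of 0.1 and -0.72 by voom, Nfkbie -0.048 and -0.043, and Bcl3 -0.60 and -1.07, while Rela was 0.027 without both trends. With 1 library left out the interaction was -0.40 to 0.087 for Rela, -0.0066 to 0.15 for Nfkbie and -1.09 to 1.20 for Bcl3.

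Replicate numbers are shared across groups, but nothing says that they mark animals, and deviations of libraries with the same number correlated at -0.12 to -0.53. The replicate block gave 20 genes at 3 months, 0 at 18 months and no other count of calls beyond 1.5 times, with 6, 0, 0, 6 and 5 members called. With the numbers crossed, a pairing added after the data were seen, 312 genes and 1 member were called at 3 months and 306 genes and 5 members at 18 months.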
